A study of Mus musculus with 8 samples.

Results

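The transcripts of 9 transcription factor genes that set or maintain macrophage identity were followed in mouse bone marrow-derived macrophages (BMDMs), which are primary macrophages grown from marrow. The set is a list of gene names with no threshold on a measured value, drawn up with earlier results of these data known: Spi1, Cebpa, Cebpb, Cebpd, Maf, Mitf, Tfec, Runx1 and Zeb2, 9 of the 54532 genes in the deposited count table. All 9 passed the filter on low counts that left 12234 genes for testing. The cells were given interleukin 4 (IL-4, 20 ng/ml) for 24 h, washed, and then given lipopolysaccharide (LPS, 100 ng/ml) for 4 h; or LPS alone at that dose for 4 h; or IL-4 alone at that dose for 24 h; or neither, as the control. Each of these 4 groups has 2 libraries, numbered 1 and 3, of total RNA from cells labelled as BMDMs. The strain, genotype and age of the mice, the growth factor used for culture and any rest between the wash and LPS are not given in the sources used here. The series title names trained immunity after IL-4, and the comparisons ask how each factor's transcript responded to LPS, to IL-4, and to LPS in cells that had seen IL-4.

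PU.1, the product of Spi1, is the ETS-family factor that opens macrophage enhancers, and it does so together with C/EBP and RUNX proteins. C/EBPα, from Cebpa, acts in the commitment of granulocyte and monocyte progenitors, whereas C/EBPβ and C/EBPδ, from Cebpb and Cebpd, are the family members known for their induction by inflammatory signals. The remaining factors modify this base: c-Maf, from Maf, is known for driving Il10 in macrophages, MITF and TFEC belong to the MiT/TFE group that controls lysosomal and osteoclast genes, RUNX1 is required for the first definitive blood cells, and ZEB2 is a repressor that preserves the identity of resident macrophages. LPS signals through Toll-like receptor 4 to NF-κB, AP-1 and interferon regulatory factors, and IL-4 signals through STAT6.

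Promoters were available in RefSeq (GRCm38.p6, the mm10 assembly) for 6 of the 9 genes, 12 start sites in all. Each was read as 250 bases before and 50 bases after the start site. A total of 9 motifs were searched on both strands, and the share of all 32851 RefSeq promoters of that length that hold each one is given here. They were the ETS core GGAAGT (23.8%), the C/EBP motif TTGCNNAA (10.8%), the cyclic AMP response element half-site TGACG (20.8%), the E-box CACGTG that MiT/TFE factors bind (7.15%), the RUNX motif TGTGGT (16.8%), the ZEB E2-box CAGGTG (20.2%), the AP-1 motif TGANTCA (7.81%), the NF-κB motif (GGGA and TTCC with 2 bases of any kind between them, 1.47%) and the STAT6 motif (TTC and GAA with 4 bases between them, 6.95%). The 4 promoters below belong to the pair of genes that rose and the pair that fell most clearly with LPS among those with a RefSeq entry. Capitals mark motif matches, and lower case is the rest of the promoter.
Cebpb, chr2:167688665-167688964, plus strand: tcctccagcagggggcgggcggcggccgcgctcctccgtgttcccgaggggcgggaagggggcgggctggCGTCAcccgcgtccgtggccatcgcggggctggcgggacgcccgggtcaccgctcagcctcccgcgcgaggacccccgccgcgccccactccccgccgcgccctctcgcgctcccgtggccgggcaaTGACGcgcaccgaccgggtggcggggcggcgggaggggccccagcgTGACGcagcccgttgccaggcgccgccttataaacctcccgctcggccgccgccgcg
Tfec, chr6:16898392-16898691, minus strand: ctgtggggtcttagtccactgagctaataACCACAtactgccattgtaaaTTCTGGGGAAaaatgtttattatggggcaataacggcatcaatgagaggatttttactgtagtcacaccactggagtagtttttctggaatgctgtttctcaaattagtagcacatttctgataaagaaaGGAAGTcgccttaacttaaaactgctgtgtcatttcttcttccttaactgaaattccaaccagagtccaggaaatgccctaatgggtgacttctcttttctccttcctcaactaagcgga
Cebpa, chr7:35119043-35119342, plus strand: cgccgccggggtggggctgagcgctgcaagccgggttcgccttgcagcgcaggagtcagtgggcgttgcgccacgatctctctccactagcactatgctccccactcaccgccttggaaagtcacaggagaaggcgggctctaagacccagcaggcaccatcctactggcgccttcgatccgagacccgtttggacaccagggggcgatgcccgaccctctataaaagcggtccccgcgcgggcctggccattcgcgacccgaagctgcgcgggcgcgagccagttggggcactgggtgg
Runx1, first of its 2 start sites, chr16:92826025-92826324, minus strand: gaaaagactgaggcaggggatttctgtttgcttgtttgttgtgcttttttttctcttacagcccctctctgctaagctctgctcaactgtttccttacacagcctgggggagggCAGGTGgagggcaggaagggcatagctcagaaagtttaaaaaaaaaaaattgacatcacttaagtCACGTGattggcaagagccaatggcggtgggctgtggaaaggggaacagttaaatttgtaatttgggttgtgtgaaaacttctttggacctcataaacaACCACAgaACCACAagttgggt
The Cebpb promoter held 3 TGACG half-sites, starting at -180, -53 and -7 from the start site, with the first on the opposite strand. The Tfec promoter held a TGTGGT match on the opposite strand at -221, a STAT6 match at -200 and an ETS core at -70. The Cebpa promoter held none of the 9 motifs in these 300 bases. In the Runx1 promoter a ZEB E2-box began at -136, a CACGTG E-box at -71 and a pair of TGTGGT matches on the opposite strand at 28 and 36. The matches describe letters in these windows, and binding was not measured.

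Deposited library totals ran between 7924932 and 9431852 counts. Levels below are CPM (a gene's counts over the library total, on the usual per-million scale) adjusted by TMM factors, with replicate 1 given before replicate 3, and means are ± SD with n = 2 libraries a group. All 14 macrophage markers were tested, and their summed level lay between 16270 and 22259 CPM in the 4 IL-4-exposed libraries and between 24116 and 31474 CPM in the other 4. Its part in the IL-4 results was not tested. Of 13 neutrophil and granulocyte-precursor markers, 2 passed the filter, Elane, Ctsg and Ly6g had no read in any library, and the sum of the list never passed 59.0 CPM. Dendritic-cell markers (4 of 8 tested) summed to 7.73 to 18.4 CPM with LPS and 2.94 to 7.52 CPM without, and stromal markers (4 of 7 tested) to 18.2 to 46.1 CPM with LPS, mostly Pdgfrb, and 3.95 to 5.88 CPM without. Mast-cell, basophil and eosinophil markers (2 of 9 tested) summed to 55.6 to 108 CPM with LPS, mostly Hdc, and 6.07 to 18.3 CPM without, and Mcpt4, Mcpt8, Fcer1a and Epx had no read. The sum of the lymphocyte markers (3 of 12 tested) moved the other way, at 168 to 233 CPM with LPS and 373 to 562 CPM without. Nearly all of that sum was Il7r, while Cd3e, Cd3d, Cd8a, Cd79a and Ncr1 had no read. Of the 3 tested, Il7r fell and Lck rose with LPS, without and after IL-4 (edgeR adjusted p below 0.05), and Cd4 did neither. Lck had 215 reads over the LPS libraries and 9 over the control libraries, a log2 fold change of 5.13. Erythroid and megakaryocyte markers (1 of 8 tested) lay between 2.62 and 7.69 CPM, with no read of Hbb-bs. The part of these shifts in the LPS results was not tested. The LPS-induced genes Nos2 and Il1b were at 1017 to 3391 CPM in the LPS-exposed libraries and at no more than 2.68 CPM in the others. The IL-4-induced gene Retnla had 188 to 284 reads in the IL-4-exposed libraries and no read in the others, and Chil3, also IL-4-induced, was at 84.8 to 153 CPM with IL-4 and 1.40 to 2.51 CPM without.

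The factors spanned a wide range of transcript levels, and their order differed between groups. Scaled by exon length and ranked among the 792 tested transcription factor genes, Cebpb stood at rank 4 in IL-4 then LPS macrophages, Spi1 at 9, Cebpd at 45 and Cebpa at 125. In LPS macrophages Cebpb was at rank 2 with 404 ± 97 CPM per kilobase, Spi1 at 9 with 238 ± 59, Cebpd at 36 with 50.9 ± 32 and Cebpa at 171 with 10.2 ± 2.8. In IL-4 macrophages Spi1 held rank 3, Cebpa 6 with 129 ± 6.2 CPM per kilobase and Cebpb 7. In control macrophages Spi1 ranked 3 at 145 ± 27 CPM per kilobase, Cebpb ranked 7 at 96.0 ± 4.2 and Cebpa ranked 12 at 81.0 ± 0.88. Zeb2 at 19.1 ± 0.27, Maf at 14.4 ± 0.91 and Mitf at 12.8 ± 4.1 CPM per kilobase followed there at ranks 60, 86 and 109. Runx1, Tfec and Cebpd stood at ranks 214, 276 and 299 in control macrophages, with 6.59 ± 0.035, 4.54 ± 0.33 and 4.19 ± 2.1 CPM per kilobase. Within the control group the ranges of Spi1, Cebpb and Cebpa did not overlap with one another, those of Maf and Mitf did, and the range of Cebpd took in that of Tfec. These ranks are descriptions of group means and carry no test.

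**Figure D1:**
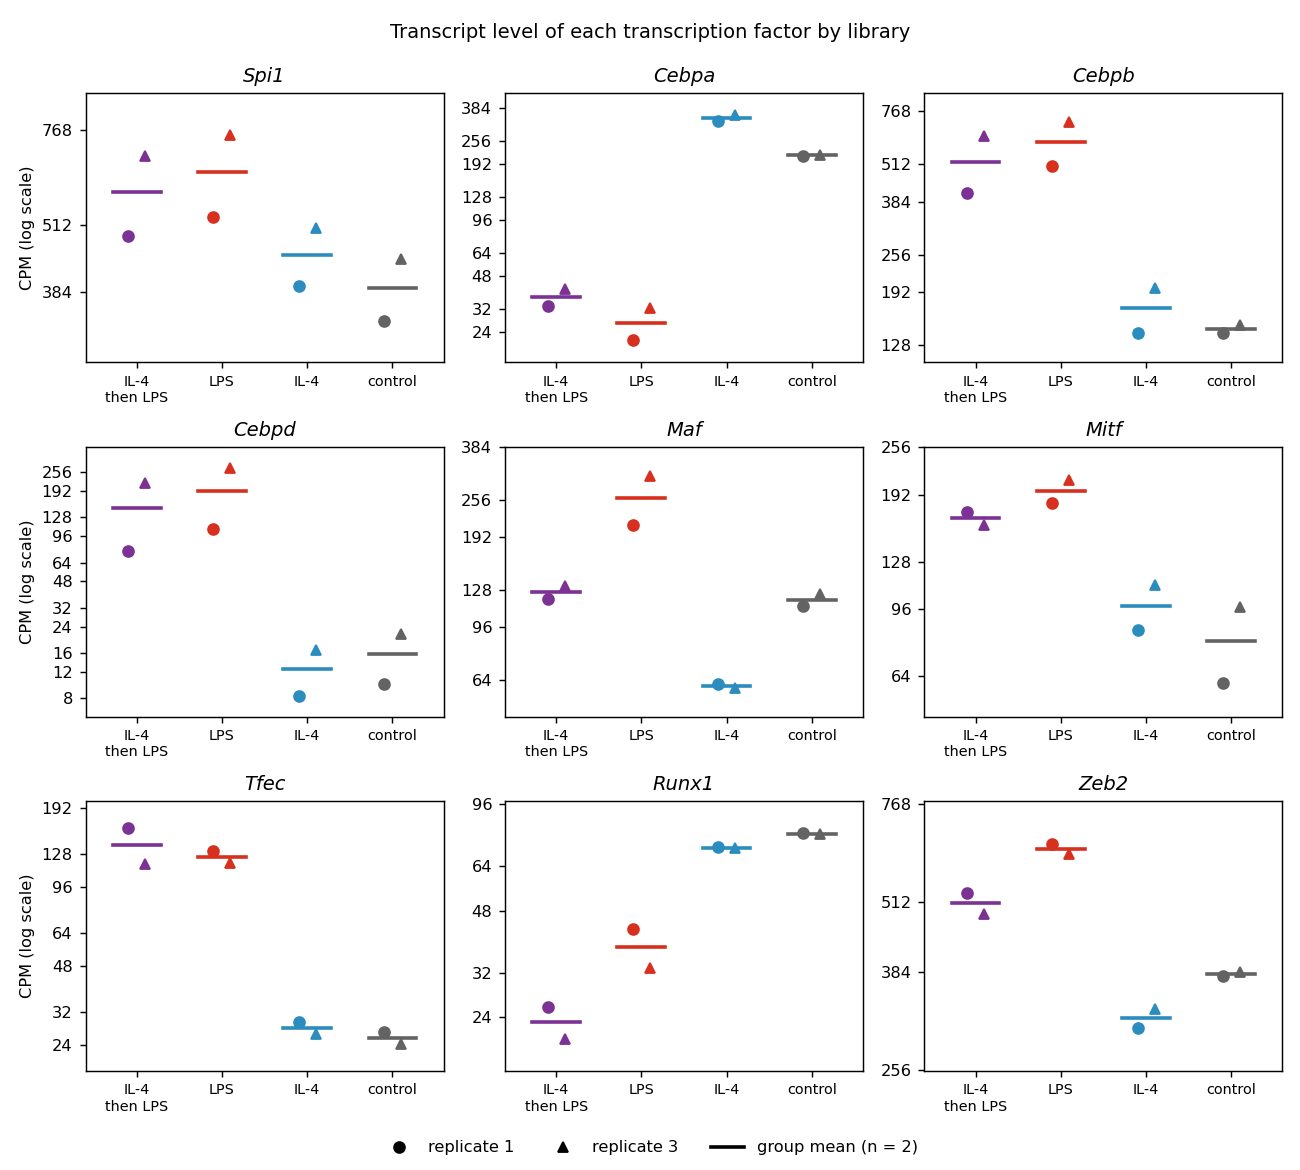
Transcript level of each of the 9 factors in CPM (log axis, a separate range for each gene) in the 4 groups, with 1 point a library (circle, replicate 1; triangle, replicate 3) and a bar at the group mean (n = 2). The LPS-exposed libraries of Cebpb, Cebpd, Mitf and Tfec lie above all libraries without LPS, those of Cebpa and Runx1 lie below, and the Maf libraries with IL-4 lie below their counterparts without it.

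LPS moved the set in opposite directions. Transcripts of Cebpb, Cebpd, Tfec, Mitf, Maf and Zeb2 rose in LPS macrophages against control macrophages, Cebpa and Runx1 fell, and Spi1 did not pass the test (edgeR quasi-likelihood test, Benjamini-Hochberg adjusted p below 0.05 over all genes tested). Of all genes tested in that comparison, 21.8% rose and 18.6% fell, so calls were common. The median absolute log2 fold change was 1.31 over the 9 factors and 0.63 over all genes. The 9 were chosen with earlier results of these data known, so that contrast is a description only. The same 6 rose and the same 2 fell in IL-4 then LPS macrophages against IL-4 macrophages, where 20.7% of all genes rose and 18.6% fell. These 2 comparisons share no library, but both use the same replicate numbers, which are taken to mark pairs. Their agreement is therefore not that of independent repeats. In such bulk samples fewer cells of a type and less RNA per cell cannot be told apart.

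Spi1 (ENSMUSG00000002111, chr2:91082390-91115756 on mm10, plus strand) had the smallest fitted LPS change of the 9 in both settings. It was at 529 and 755 CPM in LPS macrophages, against 339 and 441 CPM in control macrophages. Both LPS libraries lay above both control libraries. The log2 fold change was 0.72 ± 0.26 (SE), with a 95% confidence interval of 0.12 to 1.31 and an adjusted p of 0.0574. With the replicate number as a term it was 0.71 ± 0.10 and the adjusted p was 0.000326, so the gene rose in that fit, in which 28.2% of all genes rose; it also passed in DESeq2 (0.0266), with no low-count filter (0.00367) and without LPS replicate 1 (0.0402). After IL-4, Spi1 was at 489 and 689 CPM in IL-4 then LPS macrophages, against 394 and 505 CPM in IL-4 macrophages, and the groups overlapped. That log2 fold change was 0.39 ± 0.26 (adjusted p = 0.265), and with the replicate term it was 0.38 ± 0.10 (adjusted p = 0.011), a rise shared by 26% of all genes. Replicate 3 was higher than replicate 1 in all 4 groups.

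The C/EBP genes changed places. Cebpa (ENSMUSG00000034957, chr7:35119293-35121928, plus strand) was at 21.8 and 32.2 CPM in LPS macrophages, against 212 and 215 CPM in control macrophages. It was 7.904-fold lower with LPS, a log2 fold change of -2.98 ± 0.21 (adjusted p = 3.26e-05). After IL-4 it was at 33.2 and 40.7 CPM in IL-4 then LPS macrophages, against 328 and 351 CPM in IL-4 macrophages, which is 9.17-fold lower (log2 fold change -3.20 ± 0.21, adjusted p = 2.74e-05). No LPS-exposed library came near a library without LPS. Ranked by the size of decrease, Cebpa stood at 16 of 792 transcription factor genes in the first comparison and at 20 in the second.

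Cebpb (ENSMUSG00000056501, chr2:167688915-167690418, plus strand) was at 504 and 710 CPM in LPS macrophages, against 140 and 149 CPM in control macrophages. The gene rose 4.21-fold (log2 fold change 2.07 ± 0.28, adjusted p = 0.000829). In IL-4 then LPS macrophages it was at 410 and 636 CPM, against 141 and 199 CPM in IL-4 macrophages, a 3.08-fold rise (log2 fold change 1.62 ± 0.28, adjusted p = 0.0027). The lowest LPS-exposed library was above the highest library without LPS. Its annotated exons share 312 of 1504 bases (20.7%) with Tmem189 on the opposite strand, and the sources do not say whether counting used strand, so reads in that stretch cannot be assigned to either gene with certainty. Tmem189 moved the other way, with 563 and 685 counts in LPS macrophages, against 2062 and 1731 counts in control macrophages (log2 fold change -1.01 ± 0.14, edgeR adjusted p = 0.000874).

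Cebpd (ENSMUSG00000071637, chr16:15887286-15891031, plus strand) had the largest rise of the 9. It was at 107 and 274 CPM in LPS macrophages, against 10.03 and 21.3 CPM in control macrophages. This is a 12.2-fold rise (log2 fold change 3.61 ± 0.69, adjusted p = 0.00464). It was at 76.5 and 217 CPM in IL-4 then LPS macrophages, against 8.29 and 16.8 CPM in IL-4 macrophages, an 11.7-fold rise (log2 fold change 3.55 ± 0.70, adjusted p = 0.00534). Replicate 3 exceeded replicate 1 in each of the 4 groups, and the fold change had the widest error of the set. Without LPS replicate 3 the first log2 fold change was 2.78 and without control replicate 3 it was 4.21; the second was 2.61 without IL-4 then LPS replicate 3 and 4.17 without IL-4 replicate 3. The rise passed the test each time. A stretch of 562 of its 3746 exonic bases (15%) is shared with Spidr on the opposite strand, which had only 86 and 126 counts in LPS macrophages, against 171 and 124 counts in control macrophages.

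Set side by side per kilobase, Cebpb held most of the summed level of the 3 C/EBP genes with LPS, and Cebpa and Cebpb divided nearly all of it without LPS. Cebpb made up 90.1% and 84.7% in LPS macrophages, against 52.8% and 53.1% in control macrophages. Cebpa made up 2.23% and 2.19% in LPS macrophages, against 45.6% and 43.8% in control macrophages. The share of Cebpd was 7.69% and 13.1% in LPS macrophages, against 1.52% and 3.06% in control macrophages. After IL-4, Cebpb held 89.2% and 85.2% in IL-4 then LPS macrophages, against 42.5% and 49.0% in IL-4 macrophages. Cebpa held 4.13% and 3.11% in IL-4 then LPS macrophages, against 56.5% and 49.3% in IL-4 macrophages. The summed level of the 3 genes was also higher with LPS, at 372 and 558 CPM per kilobase in LPS macrophages, against 176 and 186 CPM per kilobase in control macrophages. Counted as reads with no length scaling, a view added after the data had been seen, Cebpb held 74.7 ± 6.9% in LPS macrophages, against 38.6 ± 0.032% in control macrophages, and Cebpa held 3.31 ± 0.20% in LPS macrophages, against 57.2 ± 1.9% in control macrophages. In IL-4 macrophages the read shares were 65.4 ± 4.8% for Cebpa and 32.3 ± 4.0% for Cebpb. Which of the pair was ahead in control macrophages thus changed with length scaling. These counts are per gene and do not separate the protein isoforms that both Cebpa and Cebpb give from 1 transcript.

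**Figure D2:**
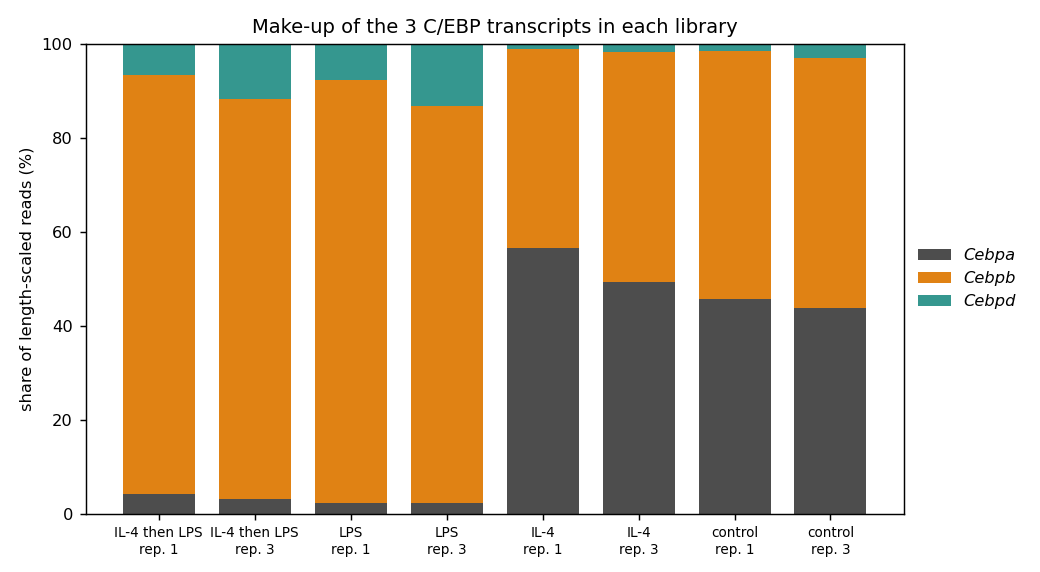
Share of the summed length-scaled transcript level of Cebpa, Cebpb and Cebpd held by each gene (percent, from 0), in 1 stacked bar for each of the 8 libraries. Cebpb holds 84.7% to 90.1% of every LPS-exposed bar and 42.5% to 53.1% of every bar without LPS.

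The MiT/TFE members of the set both rose with LPS. Tfec (ENSMUSG00000029553, chr6:16833373-16898441, minus strand), whose expression is largely restricted to macrophages, was at 132 and 118 CPM in LPS macrophages, against 26.7 and 24.1 CPM in control macrophages. The rise was 4.93-fold (log2 fold change 2.30 ± 0.18, adjusted p = 5.74e-05). It was at 162 and 117 CPM in IL-4 then LPS macrophages, against 29.2 and 26.3 CPM in IL-4 macrophages, a 5.03-fold rise (log2 fold change 2.33 ± 0.18, adjusted p = 5.53e-05). Tfec had the narrowest relative error among the factors that rose, and its LPS-exposed libraries all lay far above those without LPS. Mitf (ENSMUSG00000035158, chr6:97807052-98021349, plus strand), best known for pigment cells and osteoclasts, was at 183 and 210 CPM in LPS macrophages, against 61.1 and 97.1 CPM in control macrophages. It rose 2.48-fold (log2 fold change 1.31 ± 0.24, adjusted p = 0.0034).

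Mitf rose after IL-4 as well. It was at 173 and 160 CPM in IL-4 then LPS macrophages, against 84.3 and 111 CPM in IL-4 macrophages. The groups did not overlap and the log2 fold change was 0.77 ± 0.23 (adjusted p = 0.0329). The call was lost without IL-4 replicate 1 (adjusted p = 0.186), without IL-4 then LPS replicate 1 (0.119) and without IL-4 then LPS replicate 3 (0.0863), and also with upper-quartile scaling (0.0912) or scaling by library size alone (0.323). The log2 fold change was 0.59, 0.71 and 0.83 in those 3 leave-one-out fits, and 0.53 and 0.26 under those 2 scalings. With the replicate term it was 0.79 ± 0.16 (adjusted p = 0.0033).

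Maf (ENSMUSG00000055435, chr8:115682942-115707794, minus strand) was at 210 and 309 CPM in LPS macrophages, against 113 and 124 CPM in control macrophages. It rose 2.19-fold (log2 fold change 1.13 ± 0.19, adjusted p = 0.00231). In IL-4 then LPS macrophages it was at 119 and 132 CPM, against 61.9 and 60.1 CPM in IL-4 macrophages, a 2.06-fold rise (log2 fold change 1.04 ± 0.19, adjusted p = 0.00377). No library of an LPS-exposed group reached down to its counterpart without LPS. The group means were 126 ± 9.5 CPM in IL-4 then LPS, 260 ± 70 CPM in LPS, 61.0 ± 1.2 CPM in IL-4 and 118 ± 7.5 CPM in control macrophages.

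Runx1 (ENSMUSG00000022952, chr16:92601466-92826149, minus strand) fell. It was at 42.6 and 33.0 CPM in LPS macrophages, against 79.5 and 78.9 CPM in control macrophages, which is 2.09-fold lower (log2 fold change -1.07 ± 0.16, adjusted p = 0.00149). It was at 25.6 and 20.9 CPM in IL-4 then LPS macrophages, against 72.6 and 72.2 CPM in IL-4 macrophages, 3.11-fold lower (log2 fold change -1.64 ± 0.17, adjusted p = 0.000202). All LPS-exposed libraries lay below all others, and both IL-4 then LPS libraries lay below both LPS libraries.

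Zeb2 (ENSMUSG00000026872, chr2:44983632-45117395, minus strand) had a small and even rise. It was at 651 and 625 CPM in LPS macrophages, against 377 and 384 CPM in control macrophages (log2 fold change 0.75 ± 0.13, adjusted p = 0.00313). It was at 531 and 488 CPM in IL-4 then LPS macrophages, against 304 and 329 CPM in IL-4 macrophages (log2 fold change 0.69 ± 0.13, adjusted p = 0.00479). The groups did not overlap in either comparison. Its call rested on the scaling: by library size alone the log2 fold changes were 0.14 (adjusted p = 0.352) and 0.17 (adjusted p = 0.28).

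That scaling moved all genes together. When libraries were scaled by their size alone, the all-gene median of log2 fold changes was -0.62 for LPS against control and -0.56 for IL-4 then LPS against IL-4, compared with -0.01 and -0.04 with TMM factors. The share of calls that were rises was 21.2% and 22.5% by library size, compared with 53.9% and 52.8% with TMM. With upper-quartile factors the medians were -0.28 and -0.28 and the shares 36.6% and 36%. All changes here are relative to the TMM centre. Under each of these scalings Cebpb, Cebpd, Tfec, Mitf and Maf remained above 0 and Cebpa and Runx1 below 0 in both comparisons, whereas Spi1 after IL-4 turned to -0.13 by library size.

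**Figure D3:**
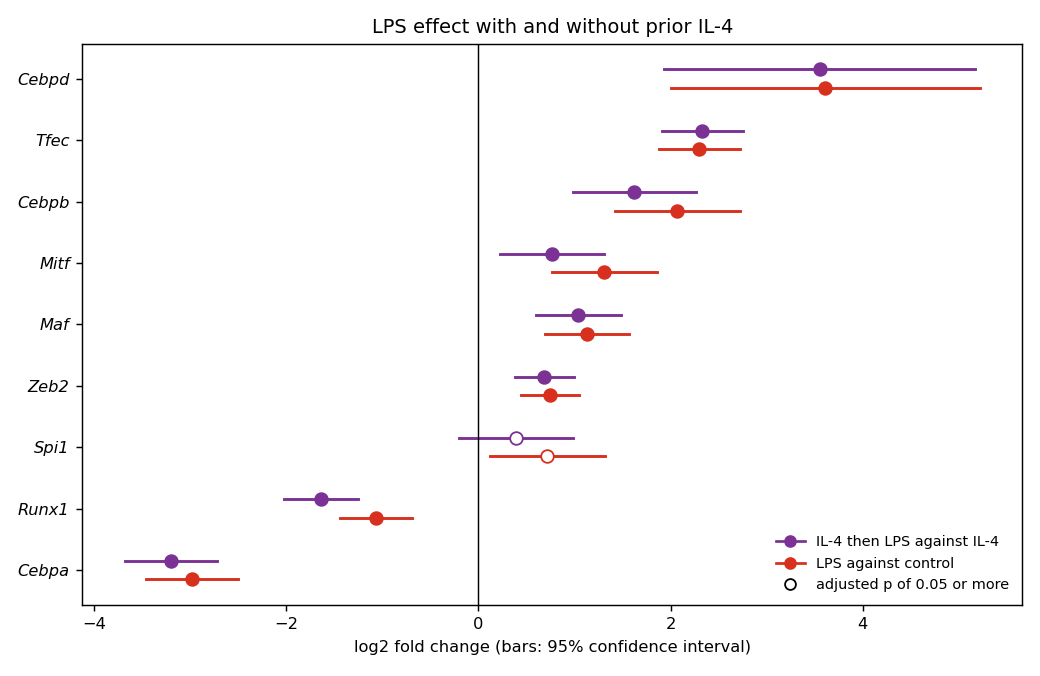
Log2 fold change of each factor with LPS after prior IL-4 (IL-4 then LPS over IL-4) and without it (LPS over control), with 95% confidence intervals as bars and open points where the adjusted p was 0.05 or more. Cebpd, Tfec and Cebpb lie farthest above 0 and Cebpa farthest below, and only the Spi1 points are open.

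The wider families of these factors were then read in the same fits. In the MiT/TFE group the other 2 genes went against Mitf and Tfec: Tfeb, a regulator of lysosome formation, was at 10.8 ± 5.8 CPM in LPS macrophages and 68.0 ± 17 CPM in control macrophages (log2 fold change -2.65 ± 0.47, adjusted p = 0.00307). Tfe3 fell as well, by less (log2 fold change -0.44 ± 0.13, adjusted p = 0.0325). After IL-4 both fell again with LPS, with log2 fold changes of -3.25 for Tfeb and -0.80 for Tfe3. In the MAF family 2 of 5 tested genes rose with LPS (median log2 fold change -0.04, compared with -0.01 over all genes). The small MAF genes Mafk and Maff, which lack a transactivation domain, rose, with log2 fold changes of 3.18 ± 0.14 and 2.84 ± 0.23.

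Among the C/EBP relatives outside the set, none of 3 tested genes passed the test with LPS in either setting. The log2 fold changes for LPS against control were -0.33 for Cebpg, -0.39 for Cebpz and 0.03 for Ddit3, with a median of -0.33. With the replicate term Cebpg fell in both settings. Its log2 fold change there was -0.33 for LPS against control (edgeR adjusted p = 0.0406). For IL-4 then LPS against IL-4 it was -0.53 (edgeR adjusted p = 0.00504). The granulocyte factor gene Cebpe did not pass the filter, with 0 reads in LPS macrophages and 10 reads in control macrophages. All 10 were in control replicate 1, and control replicate 3 had 0. The ETS family divided, with 5 of 15 tested genes up and 4 down for LPS against control (median log2 fold change 0.37). For IL-4 then LPS against IL-4, 5 were up and 6 down (median 0.47, compared with -0.04 over all genes). With the replicate term 7 rose and 5 fell in the first comparison, and 6 and 6 in the second. In that fit 28.2% and 26% of all genes rose. Ets2, a target of MAP kinase signalling, was at 253 ± 151 CPM in LPS macrophages and 17.8 ± 4.7 CPM in control macrophages (3.83 ± 0.49). Etv6, a repressor, rose too (2.63 ± 0.19), while Ets1 (-2.42 ± 0.59) and Fli1 (-2.15 ± 0.19) fell. After IL-4 the same 4 genes had log2 fold changes of 3.30, 2.57, -2.13 and -2.31, and each passed the test.

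No RUNX relative or partner passed the test for LPS against control (0 of 5 tested, median log2 fold change -0.80; 1 fell with the replicate term, Runx2, at -0.76 with an adjusted p of 0.0339). After IL-4, 2 of the 5 fell with LPS and none rose (median -1.14): Runx2, known from bone, with -1.14 ± 0.34 (adjusted p = 0.0322) and the corepressor gene Cbfa2t3 with -3.12 ± 1.1 (adjusted p = 0.0487). Cbfa2t3 had few reads, 4 over the IL-4 then LPS libraries and 55 over the IL-4 libraries. With the replicate term Runx3, named here after its values were seen, fell as well (-1.64, adjusted p = 0.0274). Among 8 ZEB relatives, CtBP corepressors, Id factors and the E proteins they bind, 2 rose and 3 fell for LPS against control, and the same numbers for IL-4 then LPS against IL-4 (medians 0.13 and -0.46); with the replicate term 5 fell in the second comparison. Zeb1, the closest relative of Zeb2, was at 32.4 ± 14 CPM in LPS macrophages and 3.50 ± 0.061 CPM in control macrophages (3.21 ± 0.40), and the E protein gene Tcf4 rose likewise (3.03 ± 0.15). Id3, an inhibitor of E proteins, fell (-1.61 ± 0.14), as did the E protein gene Tcf12 (-1.09 ± 0.16). By library size alone the medians for LPS against control of the ETS and ZEB lists turned to -0.24 and -0.48, with the all-gene median at -0.62.

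**Figure D4:**
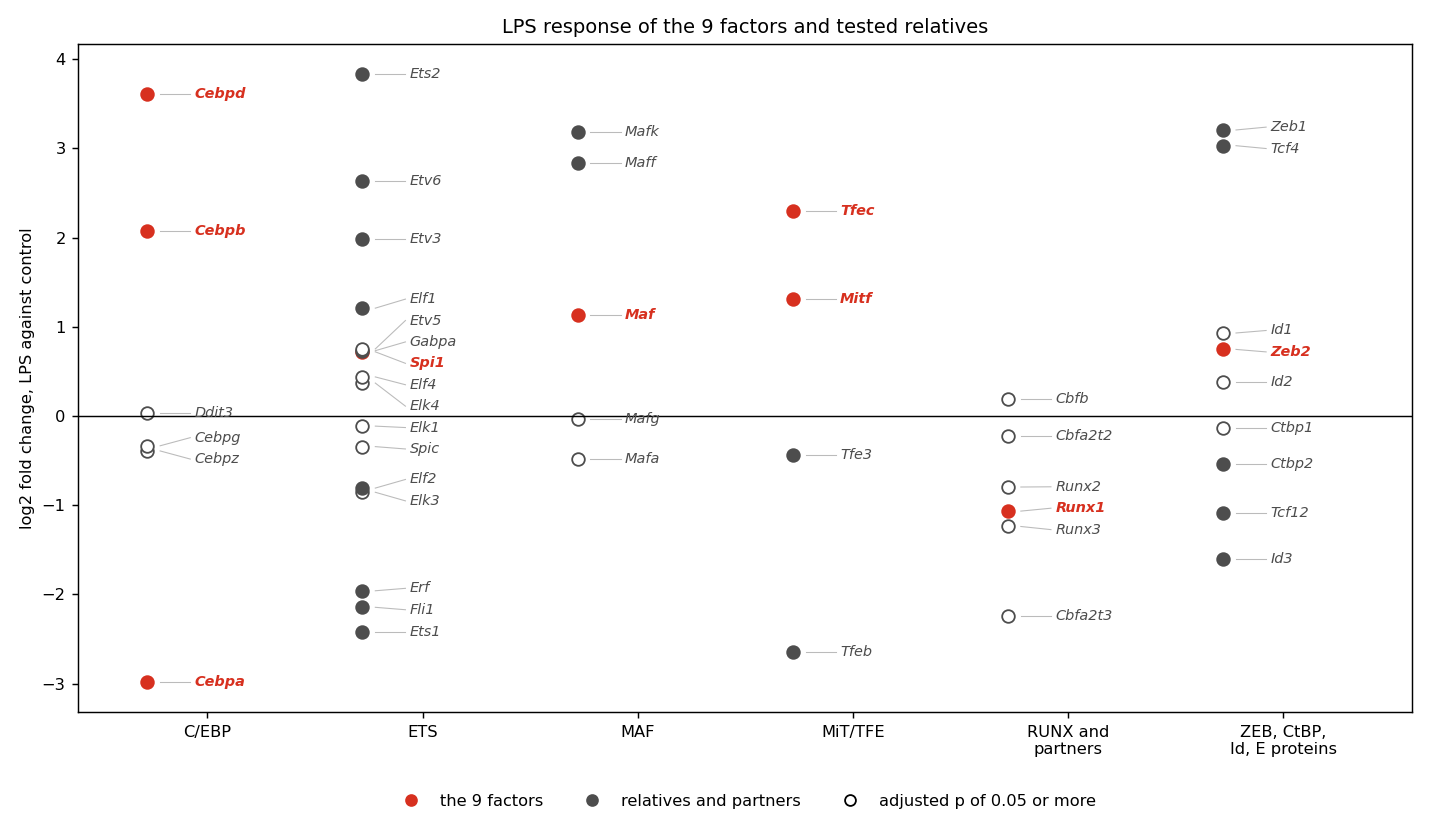
Log2 fold change for LPS against control macrophages of the 9 factors (red) and of tested relatives and partners (grey), grouped by family along the horizontal axis, with open points where the adjusted p was 0.05 or more. Within the C/EBP, ETS, MiT/TFE and ZEB columns called genes lie on both sides of 0. Cebpd at 3.61 and Cebpa at -2.98 are at the ends of the C/EBP column.

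Of 16 other tested myeloid lineage regulators, 6 rose and 2 fell for LPS against control (median log2 fold change 0.13). For IL-4 then LPS against IL-4, 5 rose and 3 fell (median -0.15). With the replicate term 3 fell in the first comparison and 4 in the second. Lyl1, a haematopoietic bHLH factor gene, was at 3.26 ± 0.66 CPM in LPS macrophages and 86.2 ± 9.5 CPM in control macrophages (-4.72 ± 0.23). Pparg, the lipid-sensing nuclear receptor of alveolar macrophages, fell as well (-2.25 ± 0.36), and Jdp2, an AP-1 family repressor, rose (3.18 ± 0.26). Gfi1, which encodes a repressor that acts in granulocyte development, had 120 reads over the LPS libraries and 0 reads over the control libraries. This is at least 60.3-fold higher with a floor of 3 reads over the group. LPS replicate 3 held 108 of those reads and LPS replicate 1 held 12; without LPS replicate 3 the bound was 12.1-fold. In the IL-4 setting Gfi1 had 179 reads over IL-4 then LPS libraries and 0 reads over IL-4 libraries, at least 91.1-fold higher with the same floor. Of these, 35 were in replicate 1 and 144 in replicate 3, and without IL-4 then LPS replicate 3 the bound was 37.8-fold.

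Known targets of these factors did not move as a block. Of 24 tested genes known as PU.1 and C/EBP targets, 8 rose and 2 fell for LPS against control, and the median log2 fold change was 0.10; by library size alone 4 rose, 12 fell and the median was -0.50, with the all-gene median at -0.62. Among those that fell was Csf1r, the receptor gene for macrophage colony-stimulating factor (-0.56 ± 0.18, adjusted p = 0.0401), named here after its values were seen. The LPS co-receptor gene Cd14 was at 2316 ± 70 CPM in LPS macrophages and 413 ± 86 CPM in control macrophages (2.49 ± 0.19). The scavenger receptor gene Msr1 (2.27 ± 0.24), the Fcγ receptor gene Fcgr1 (2.22 ± 0.18) and the NADPH oxidase gene Cybb (1.51 ± 0.49, adjusted p = 0.0422) rose with it. For IL-4 then LPS against IL-4, 7 of the 24 rose and 3 fell (median 0.17). With the replicate term 10 of the 24 rose and 3 fell for LPS against control, and 9 and 3 after IL-4. Of 18 tested MITF and TFE targets, 5 rose and 4 fell in each of the LPS comparisons (medians -0.13 and -0.14), and 7 and 8 fell with the replicate term. Acp5, the tartrate-resistant acid phosphatase of osteoclasts, was at 113 ± 7.0 CPM in LPS macrophages and 12.1 ± 6.3 CPM in control macrophages (3.24 ± 0.39), and the autophagy receptor gene Sqstm1 rose 1.93 ± 0.16 on the log2 scale. The folliculin gene Flcn (-1.83 ± 0.29) and Rragd (-1.94 ± 0.52), which both act in lysosomal nutrient sensing, fell.

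For IL-4 against control the median absolute log2 fold change was 0.27 over the 9 factors and 0.19 over all genes. The intervals given below are too wide to show that the factors stayed close to control. None of the 9 factors passed the test for IL-4 against control or for IL-4 then LPS against LPS (edgeR quasi-likelihood test, adjusted p below 0.05), against 0.0654% of all genes in each comparison. At an unadjusted p below 0.05 there were 2 and 3 factors, with 892 and 1040 genes in all. DESeq2 called 1 factor, Maf, in each. Over all 12234 genes it called 65 up and 45 down in the first comparison, and 61 up and 58 down in the second. With the replicate term 2 factors were called in each, against 2.35% and 2.3% of all genes. IL-4 against control shares its control libraries with LPS against control, while IL-4 then LPS against LPS shares no library with IL-4 against control. Both IL-4 comparisons use the same replicate numbers, taken to mark pairs, so they are not independent repeats either.

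Maf had the largest difference with IL-4. It was at 61.9 and 60.1 CPM in IL-4 macrophages, against 113 and 124 CPM in control macrophages. Its log2 fold change was -0.96 ± 0.19, with an unadjusted p of 0.00107 and an adjusted p of 0.196 over all genes; the value with the replicate term was -0.95 ± 0.14 (adjusted p = 0.0125). It was at 119 and 132 CPM in IL-4 then LPS macrophages, against 210 and 309 CPM in LPS macrophages. That log2 fold change was -1.05 ± 0.19 (adjusted p = 0.147), and with the replicate term -1.03 ± 0.14 (adjusted p = 0.00834). Both libraries with IL-4 lay below both libraries without it in each setting. The IL-4 effect averaged over both settings, a contrast added after the data had been seen, was -1.002 ± 0.13 for Maf (adjusted p = 0.0243), which made it the single factor called among 0.67% of all genes. That call was kept without LPS replicate 1 or LPS replicate 3 and lost without any of the other 6 libraries, with an adjusted p of up to 0.107; the log2 fold change lay between -0.96 and -1.04 in those 6 fits.

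Cebpa was higher in both libraries with IL-4 in each setting. It was at 328 and 351 CPM in IL-4 macrophages, against 212 and 215 CPM in control macrophages (log2 fold change 0.67 ± 0.19, adjusted p = 0.415, and 0.0315 with the replicate term). It was at 33.2 and 40.7 CPM in IL-4 then LPS macrophages, against 21.8 and 32.2 CPM in LPS macrophages (log2 fold change 0.45 ± 0.20, adjusted p = 0.601). Runx1 was at 72.6 and 72.2 CPM in IL-4 macrophages, against 79.5 and 78.9 CPM in control macrophages (log2 fold change -0.13, adjusted p = 0.917). With LPS following, it was at 25.6 and 20.9 CPM in IL-4 then LPS macrophages, against 42.6 and 33.0 CPM in LPS macrophages (log2 fold change -0.70 ± 0.17, adjusted p = 0.284, and 0.041 with the replicate term). With the replicate term the averaged contrast called 4 factors, Cebpa, Maf, Runx1 and Zeb2, against 6.49% of all genes. DESeq2 also called Cebpa in that contrast (adjusted p = 0.0392). The Zeb2 value there was -0.29 (adjusted p = 0.0468).

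Tfec is known from mouse macrophages as an IL-4-inducible gene. Here it was at 29.2 and 26.3 CPM in IL-4 macrophages, against 26.7 and 24.1 CPM in control macrophages. The groups overlapped, and the log2 fold change was 0.12 ± 0.18 (adjusted p = 0.936) with a 95% confidence interval of -0.29 to 0.54. For IL-4 then LPS against LPS it was 0.15, with an interval of -0.24 to 0.55. The intervals for IL-4 against control were -0.39 to 0.80 for Spi1, -0.39 to 0.86 for Cebpb, -1.89 to 1.25 for Cebpd, -0.24 to 0.85 for Mitf and -0.57 to 0.04 for Zeb2. In this fit without a replicate term, fold changes inside these intervals could not be told from no change with 2 libraries a group. With the replicate term the Cebpd value for IL-4 against control was -0.32 ± 0.16 (edgeR adjusted p = 0.357).

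Of the MITF and TFE targets, Dcstamp, a fusion receptor of osteoclasts and giant cells, rose with IL-4. It was at 31.6 ± 5.4 CPM in IL-4 macrophages and 3.45 ± 1.2 CPM in control macrophages (log2 fold change 3.18 ± 0.28, adjusted p = 0.00748). No other gene of the 9 lists of relatives and targets passed the test for IL-4 against control, and none did for IL-4 then LPS against LPS. With the replicate term 3 and 4 of the MITF and TFE targets rose. Of the PU.1 and C/EBP targets, 2 and 1 rose and 2 and 2 fell in that fit. It also called 1 other lineage regulator, which fell, for IL-4 against control. For IL-4 then LPS against LPS it called falls in other lists, 1 each in the ETS and ZEB lists among them. Dcstamp was at 19.2 ± 0.84 CPM in IL-4 then LPS macrophages and 4.45 ± 0.63 CPM in LPS macrophages (log2 fold change 2.11 ± 0.28, adjusted p = 0.0732, and 0.00712 with the replicate term).

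**Figure D5:**
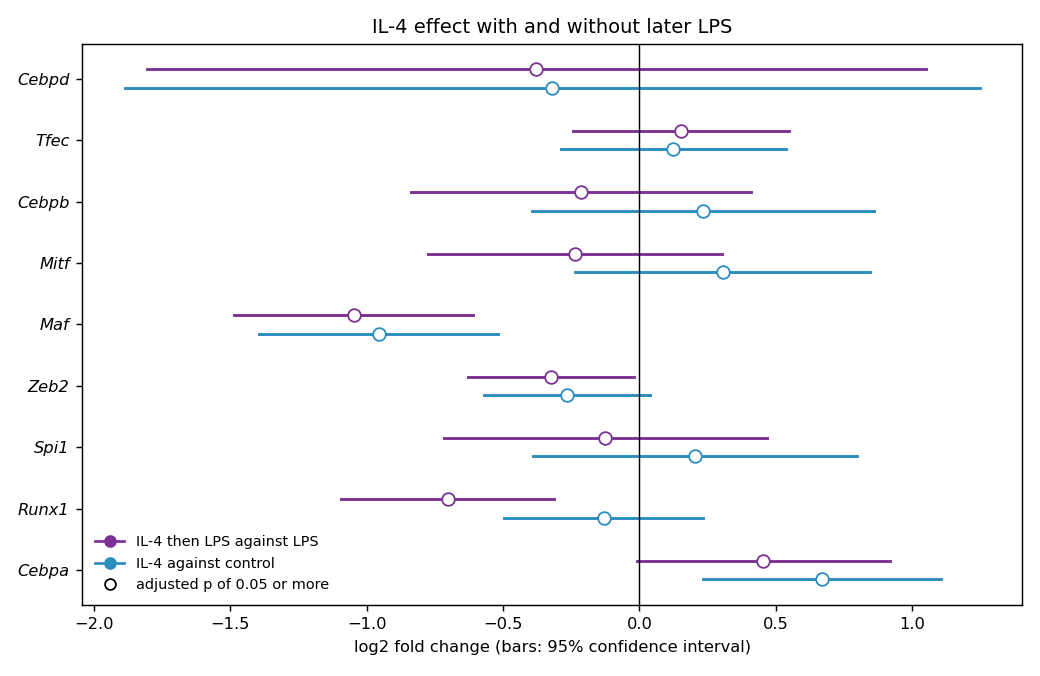
Log2 fold change of each factor with IL-4, in IL-4 then LPS against LPS macrophages and in IL-4 against control macrophages, with 95% confidence intervals as bars; all points are open, since no adjusted p was below 0.05. Maf lies near -1 in both, Cebpa lies above 0 in both, and the interval of Cebpd is the widest.

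Whether prior IL-4 changed the response to LPS was tested as the difference between the 2 LPS effects. None of the 9 factors passed, and neither did any other gene (0% of all genes, or 0.00817% with the replicate term, again with no factor; 322 genes, 1 of the 9 factors among them, had an unadjusted p below 0.05, and DESeq2 called 5 genes and none of the factors). Runx1 was that factor, with a difference of -0.57 ± 0.23 (unadjusted p = 0.0385, adjusted p = 0.99998). Mitf and Cebpb followed at -0.54 ± 0.33 and -0.45 ± 0.38. For Tfec the difference was 0.03, with a 95% confidence interval of -0.54 to 0.60, and for Maf it was -0.09, with an interval of -0.71 to 0.52. Without a replicate term, the interval of Cebpd, from -2.19 to 2.07, was too wide to tell a difference of several-fold in either direction from none. With the replicate term the Cebpd difference was -0.08 ± 0.20 (edgeR adjusted p = 0.973).

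For each factor called in some comparison, the genes with the most similar profile were found by Pearson correlation of log2 CPM over the 8 libraries among 8129 genes at 10 CPM or more. The points share the LPS contrast and the scaling of each library, so the coefficients are descriptions. Tfec was most like Cd44, the hyaluronan receptor gene, at 0.9988, and Cebpd was most like Tmem135 at 0.9994. Cebpb was nearest to Leprotl1 (0.9975) and Mitf to Isoc1 (0.9927). The genes nearest to Cebpa were Tmem189 (0.9974), whose exons overlap those of Cebpb, and Dhrs3 (0.9967), a retinaldehyde reductase gene. Runx1 was nearest to Vgll4 (0.9971), a TEAD cofactor gene, and Zeb2 to 8030462N17Rik (0.9957). Maf had the lowest best match, Clec4a1, a C-type lectin receptor gene, at 0.9882. Clec4a1 averaged 40.9 CPM in IL-4 then LPS, 112 CPM in LPS, 16.8 CPM in IL-4 and 34.7 CPM in control macrophages, which is the order of the Maf means.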

How the data were processed

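RNA-seq of bone marrow-derived macrophages gave 8 libraries, 2 in each of 4 groups. The deposited table holds raw read counts per gene, with gene names, coordinates, lengths and transcription factor families. HISAT2, StringTie and HTSeq and the mm10 build are named, per the submitters' processing notes; versions, filters and strand use are not given in the sources used here. The table holds 6 more columns of counts with no matching label, not used here.

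Genes were kept with filterByExpr (12234 of 54532, holding 99.84% to 99.92% of counts), scaled by TMM (factors 0.787 to 1.251) and tested with edgeR 4.0.16 in R 4.3.3. The quasi-likelihood fit had 1 mean for each group over all 8 libraries (4 residual degrees of freedom, common dispersion 0.04023), and p-values were Benjamini-Hochberg adjusted over all genes tested, with calls at 0.05. Standard errors are approximate, from the size of the log2 change over the root of its F statistic. The fit of LPS against control was tested on simulated counts. It called 41% of 100 genes with a simulated log2 change of size 1 in the right direction, and 95% of 100 with size 2. Those were the only genes changed among 11874, with no replicate effect, whereas 21.8% of all genes rose and 18.6% fell in the data. The recovered shares therefore describe that setting and not the power of the real comparison. The other contrasts were not simulated. Levels between genes are CPM per 1000 exonic bases; the listed lengths and coordinates of the 9 factors equal those of the mm10 gene annotation. Alternatives were other scaling factors, DESeq2 1.42.0, no low-count filter, a replicate term, only the compared groups, and leaving out each library.

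The main fit takes no account of the replicate number. The fit with a replicate term is given where it changes the call of a factor or a list count reported here. The numbers are taken to mark pairs. Deviations of the replicate 1 libraries from their group means correlated at 0.343 to 0.524 in all 6 pairs of groups. With 2 libraries a group, the replicate 3 deviations are their mirror image and add nothing. The second principal component (7.8% of variance) separated the numbers. Xist had 2936 to 4465 reads in every replicate 1 library and 0 in every replicate 3 library. Reads of 4 Y-linked genes numbered 131 to 643 in replicate 3 and 0 in replicate 1. The replicate term has 3 residual degrees of freedom. Each group thus pairs 1 library with a female and 1 with a male transcript pattern, and its spread includes that difference. Nothing states that libraries came from separate cultures, so p-values measure the spread between these libraries, which may be partly technical.

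The factors and the lists were chosen with earlier results of these data known. All 9 factors are named; of each list, genes called and at least 1 log2 unit from 0 are named, at most 4 for each list and comparison, with all genes of lists of 4 or fewer. Coefficients of the 3 most similar genes were computed for each called factor. Some genes of these lists are not reported here.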

Additional observations from a re-analysis of the deposited data

How the results depend on the processing

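The counts of factors called were 0 for IL-4 against control and 0 for IL-4 then LPS against LPS. In each, DESeq2 gave 1, no low-count filter gave 2 and the replicate block gave 2. Over all 12234 genes, DESeq2 called 65 up and 45 down in the first comparison, and 61 up and 58 down in the second. With no low-count filter these were 198 and 162, and 172 and 225, of 21068 genes. With the replicate block 2.35% and 2.3% of all genes were called. The replicate block added the Spi1 rise in both LPS comparisons and the Cebpa, Maf, Runx1 and Zeb2 calls given above, and changed no other call of a factor. Leaving out 1 library gave 8 to 9 factors called for LPS against control, 7 to 8 for IL-4 then LPS against IL-4, and 0 for the difference of LPS effects and for both IL-4 comparisons. By library size alone Spi1 turned to -0.133 for IL-4 then LPS against IL-4, and the difference of LPS effects to 0.02 for Cebpd and 0.026 for Zeb2. The averaged IL-4 effect of Cebpb turned to -0.007 with relative log expression factors, -0.007 with DESeq2 and -0.011 with the replicate block. None of these values that turned belonged to a call, and the cause was not tested.

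Leaving out 1 library turned the sign of several further uncalled log2 fold changes. For IL-4 against control the ranges were -0.029 to 0.387 for Spi1, -0.033 to 0.657 for Mitf, -0.958 to 0.302 for Cebpd and -0.081 to 0.44 for Cebpb. For IL-4 then LPS against LPS they were -0.392 to 0.155 for Spi1, -0.565 to 0.068 for Cebpb, -1.317 to 0.457 for Cebpd and -0.093 to 0.368 for Tfec. For the difference of LPS effects they were -0.466 to 0.093 for Cebpa, -0.999 to 0.774 for Cebpd, -0.34 to 0.213 for Maf, -0.218 to 0.243 for Tfec and -0.119 to 0.069 for Zeb2. For the averaged IL-4 effect they were -0.094 to 0.18 for Spi1, -0.165 to 0.151 for Cebpb, -0.122 to 0.224 for Mitf and -0.818 to 0.069 for Cebpd. Counts over all genes moved by over 1.5 times in the IL-4 comparisons: 8 genes were called for IL-4 against control, compared with 288 with the replicate block. List counts followed the scaling: by library size alone 4 PU.1 and C/EBP targets rose and 12 fell with LPS, compared with 8 and 2. With 2 libraries a group, changes under about the interval widths given cannot be resolved in the fit without a replicate term.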
